A study of Mus musculus with 6 samples.

Results

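The mitochondrial genome encodes the 2 ribosomal RNAs of the mitochondrial ribosome and, among its messenger RNAs, those for subunits of respiratory complexes III, IV and V. These 8 genes of the 46078 in the deposited count table are described here: mt-Rnr1 and mt-Rnr2 for the rRNAs, mt-Cytb for complex III, mt-Co1, mt-Co2 and mt-Co3 for complex IV, and mt-Atp6 and mt-Atp8 for complex V. They were taken by gene name from the authors' deposited comparison table, which listed 6 of them. The 2 it did not list, mt-Atp6 and mt-Atp8, were taken by Ensembl identifier from the count table. The rule itself uses gene names and no measured value.

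RNA was sequenced from the epithelial fraction of the colon of mice aged 2 months, in 3 wild type libraries and 3 Lingo3-/- libraries, all from animals kept under naive conditions. Lingo3 is a gene for a membrane-spanning protein with leucine-rich repeats. Epithelial cells had been washed from the tissue with EDTA and DTT, according to the protocol that all 6 libraries share, although the cell type label names DTT only for wild type replicate 1. Libraries were made from total RNA with a stranded kit after Ribo-Zero Gold depletion. Nothing in the labels says that each library came from a different animal, so each p-value here reflects only how far these libraries vary, which may in part be technical.

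Mitochondrial genes are transcribed as long precursors from both strands of a circular genome, and the precursors are cut at the tRNAs that lie between the coding genes. The small and large rRNAs and the messengers are then polyadenylated, and the messengers are translated inside the organelle into core subunits that assemble with nuclear-encoded partners. Complex III passes electrons from ubiquinol to cytochrome c, complex IV passes them on to oxygen, and complex V uses the resulting proton gradient to make ATP. In the colon, absorptive colonocytes rely on mitochondrial oxidation of butyrate for much of their energy.

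All 8 genes lie on the plus strand of the mitochondrial chromosome in GRCm38. From the first to the last they are mt-Rnr1 (ENSMUSG00000064337, bases 70 to 1024), mt-Rnr2 (ENSMUSG00000064339, 1094 to 2675), mt-Co1 (ENSMUSG00000064351, 5328 to 6872), mt-Co2 (ENSMUSG00000064354, 7013 to 7696), mt-Atp8 (ENSMUSG00000064356, 7766 to 7969), mt-Atp6 (ENSMUSG00000064357, 7927 to 8607), mt-Co3 (ENSMUSG00000064358, 8607 to 9390) and mt-Cytb (ENSMUSG00000064370, 14145 to 15288). Each is a gene without introns. The reading frames of mt-Atp8 and mt-Atp6 overlap by 43 bases, shown in capitals in the end of mt-Atp8 and the start of mt-Atp6 because a read there belongs to both genes. The sequences here are from the GENCODE M21 transcripts of GRCm38.
mt-Atp8, chrM:7907-7969: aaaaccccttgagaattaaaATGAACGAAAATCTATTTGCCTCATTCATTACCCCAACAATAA
mt-Atp6, chrM:7927-7989: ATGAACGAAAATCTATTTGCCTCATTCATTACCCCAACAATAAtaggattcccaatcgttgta

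Several of the 8 also have near-identical copies in the nuclear genome, so that a read matching both places has no unique position. On chromosome 1, between bases 24613189 and 24616197 of the minus strand, pseudogenes follow each other in the order of the mitochondrial genes. These are Gm29216, a copy of part of mt-Co1 with 6 mismatches over 492 bases, Gm28661, which matches mt-Co2 over 681 bases with 0 mismatches, Gm10925, which matches mt-Atp6 over 678 bases with 0 mismatches, and Gm28437, which matches mt-Co3 over 783 bases with 0 mismatches. On chromosome 2, Gm13340 matches mt-Co1 over 1545 bases and Gm13341 matches mt-Co2 over 672 bases, at 97.6% identity each. An 80-base stretch shows the contrast for mt-Co2, with bases of a copy that differ from the mitochondrial gene in capitals. The chromosome 1 copy has no capital, so a read from this stretch is the same letter for letter in both places, whereas the chromosome 2 copy carries substitutions such as T462C and C474T, counted from the first base of mt-Co2.
mt-Co2, chrM:7463-7542: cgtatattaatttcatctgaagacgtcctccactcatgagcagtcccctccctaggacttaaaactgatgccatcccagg
Gm28661, chr1:24615036-24615115, minus strand: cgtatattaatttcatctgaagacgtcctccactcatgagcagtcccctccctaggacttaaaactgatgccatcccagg
Gm13341, chr2:22587445-22587524, minus strand: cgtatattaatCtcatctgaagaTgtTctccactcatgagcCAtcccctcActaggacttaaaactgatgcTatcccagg

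In mt-Co1 the copy on chromosome 1 begins inside the gene. All of its 6 mismatches lie in its first bases, from T1056A to A1066T, and the rest of the copy is identical to mt-Co1. Capitals again mark bases that differ from the mitochondrial gene.
mt-Co1, chrM:6381-6460: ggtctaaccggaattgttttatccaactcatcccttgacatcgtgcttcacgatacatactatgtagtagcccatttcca
Gm29216, chr1:24616118-24616197, minus strand: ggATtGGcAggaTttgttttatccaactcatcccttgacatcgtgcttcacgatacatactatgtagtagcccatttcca
Gm13340, chr2:22588515-22588594, minus strand: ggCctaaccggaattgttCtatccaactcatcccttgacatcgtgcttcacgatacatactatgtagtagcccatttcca

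The share of each gene that occurs elsewhere was measured as the percent of its windows of 50 consecutive bases found exactly in an annotated nuclear transcript. All 635 windows of mt-Co2 were found, as were 734 of 735 (99.9%) of mt-Co3 and 629 of 632 (99.5%) of mt-Atp6. For mt-Co1 the share was 765 of 1496 (51.1%), and it was 39.8% with windows of 75 bases and 30.8% with windows of 100 bases. Only 16 of 1533 windows (1.04%) of mt-Rnr2 were found, and none of the windows of mt-Rnr1, mt-Cytb or mt-Atp8. Only annotated transcripts were searched. The nuclear stretch of 233 bases between Gm10925 and Gm28661, equal in length to the 233 bases between the matching parts of mt-Atp6 and mt-Co2 in which most of mt-Atp8 lies, holds no annotated copy and its sequence was not used here.

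Counts over genes ran from 25010618 to 28029583 in wild type and from 11868000 to 17200931 in knockout. Reads without a unique alignment, which the count table leaves out of every gene, made 36.7% ± 0.184 of all its reads in wild type and 32.6% ± 0.309 in Lingo3-/- libraries (SD, n = 3 each), and the groups did not overlap. Lingo3 itself had 3, 3 and 1 counts in the wild type libraries and 2, 0 and 1 in the knockouts, too few to check the genotype labels. All 10 epithelial markers were measured in every group, with summed levels of 5187 to 6237 counts per 1000000 (CPM) in wild type and 6111 to 7519 CPM in knockout. Markers of several cell types differed between the genotypes. In the test over all genes described below, 5.97% of genes fell and 9.43% rose at an adjusted p under 0.05. In it 11 of 13 T cell and intraepithelial lymphocyte markers fell. Their sum was 311 to 365 CPM in wild type and 110 to 194 CPM in knockout. A rise was called for 6 of 8 crypt stem and cycling cell markers, with sums of 278 to 316 CPM and 384 to 494 CPM. The summed goblet cell markers were 13370.0 to 16346 CPM and 17790.0 to 20391 CPM, with 2 of 7 higher. Markers of B cells (3 of 7 lower) and endothelium (2 of 3 tested lower) had lower sums in every knockout library, whereas the sums for absorptive colonocytes, macrophages and dendritic cells, fibroblasts, smooth muscle and erythroid cells overlapped between the groups. The part of these cell types in the values that follow was not tested, and in bulk RNA fewer cells of a type and less RNA per cell cannot be told apart.

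Together the 8 genes took 45.5% ± 1.46 of all gene counts in wild type against 34.4% ± 0.842 in Lingo3-/- (SD, n = 3 each). By library, in the order of the replicate numbers (kept for all lists of values below), the share was 47.0%, 45.3% and 44.1% in wild type against 33.5%, 34.5% and 35.2% in knockout. Every knockout library was below every wild type library, and the knockout mean was 75.7% of the wild type mean. The exact permutation test over libraries gave a 2-sided p of 0.1, the smallest that 3 against 3 allows, and 0.138 after Benjamini-Hochberg adjustment over 11 shares. They made up 97.1% ± 0.320 of all mitochondrially encoded counts in wild type and 96.8% ± 0.189 in knockout (SD, n = 3). Set against the nuclear genes alone, whose total does not contain them, they had 855982 ± 53253 counts per 1000000 nuclear counts in wild type and 533932 ± 19816 in knockout (SD, n = 3), so the knockout mean was 62.4% of the wild type mean on that scale.

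**Figure D1:**
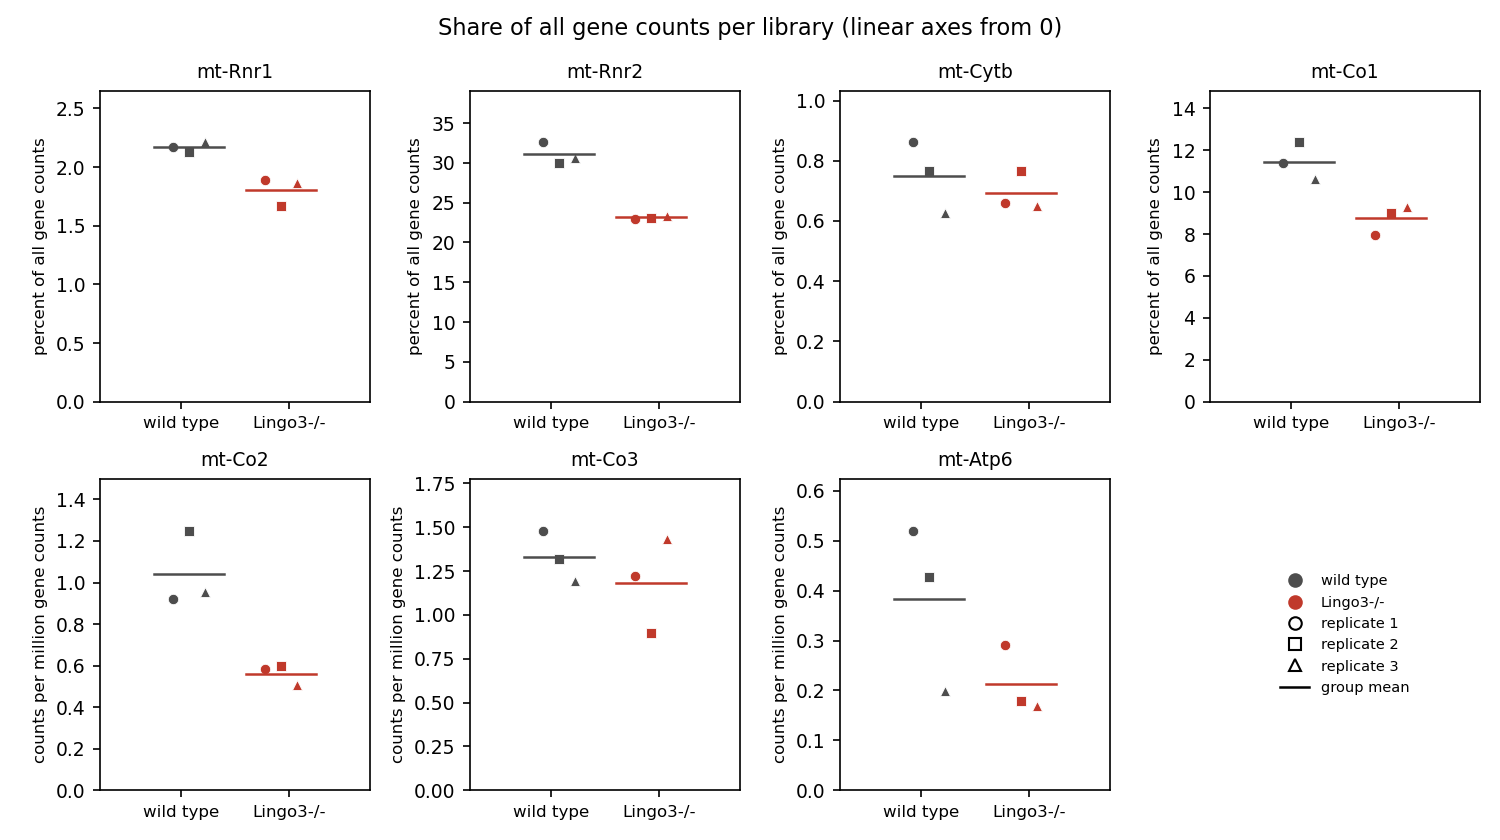
Share of all gene counts of 7 of the genes in each library, in percent for the 4 abundant ones and in counts per 1000000 gene counts for the 3 sparse ones, with bars at the group means. All axes start at 0; mt-Atp8 had 0 counts and is left out. The groups are apart for mt-Rnr1, mt-Rnr2, mt-Co1 and mt-Co2 and overlap for mt-Cytb, mt-Co3 and mt-Atp6.

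In edgeR's quasi-likelihood test over all genes, with TMM scaling between libraries, 4 of the 6 genes with enough counts to be tested fell in knockout at an adjusted p under 0.05 and 0 rose. Of all 16856 genes tested 5.97% fell and 9.43% rose, and the median log2 fold change over all of them was -0.03. The genes that fell were mt-Rnr1, mt-Rnr2, mt-Co1 and mt-Co2. As shares of all gene counts, the same 4 of 6 were lower in every knockout library than in any wild type library. Of all genes tested 4.4% were lower in this way, and 41.5% were higher in every knockout library. That total contains the mitochondrial counts, so a fall in their share raises the shares of other genes. The 4.4% therefore depends in part on that fall. With TMM-scaled CPM 5 of 6 were lower without overlap, where 16% of all genes were lower and 19.7% higher. With counts per 1000000 nuclear counts 4 of 6 were lower, where 14.9% of all genes were lower and 19.7% higher. Of the 6 listed in the authors' deposited table, 4 (mt-Rnr1, mt-Rnr2, mt-Cytb and mt-Co1) were lower at an adjusted p under 0.05, beside 6.72% of its 15138 genes.

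The rRNAs were the largest component. Their share of all gene counts averaged 33.3% ± 1.34 for wild type and 25.0% ± 0.248 for knockout (SD, n = 3 each). Ribo-Zero Gold is designed to remove mitochondrial as well as cytoplasmic rRNA, so these counts are of the rRNA that was left after that step. The rRNA counts over the counts of the 6 messengers were 2.84, 2.45 and 2.92 in wild type and 2.89, 2.54 and 2.54 in knockout. That ratio averaged 2.74 ± 0.254 and 2.65 ± 0.203 (SD, n = 3), the groups overlapped, and the exact permutation p was 0.9.

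mt-Rnr2, the 16S rRNA of the large mitochondrial ribosomal subunit, took 32.6%, 30.0% and 30.6% of all gene counts in wild type against 23.0%, 23.1% and 23.4% in knockout. The knockout libraries lay close together and well below the wild type. Scaled values were 344210.2 ± 32995 CPM in wild type and 210277 ± 10039 CPM in knockout (SD, n = 3). The gene fell by 0.71 on the log2 scale (SE 0.20, Benjamini-Hochberg adjusted p = 0.0313, edgeR's quasi-likelihood test), so that the fitted knockout level was 61.1% of wild type. Without knockout replicate 1, 2 or 3 the adjusted p from edgeR was 0.109, 0.0940 and 0.110.

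mt-Rnr1, the 12S rRNA of the small subunit, took 2.17%, 2.12% and 2.21% of all gene counts in wild type and 1.89%, 1.67% and 1.86% in knockout. Every knockout library was lower, by a smaller margin than for mt-Rnr2. The scaled means were 23987 ± 1474 CPM and 16414 ± 1441 CPM (SD, n = 3), and the gene fell by 0.55 on the log2 scale (SE 0.17, adjusted p = 0.0481, edgeR). This call lay at the threshold: without any 1 of the 6 libraries the adjusted p from edgeR was between 0.0659 and 0.165, and with RLE in place of TMM scaling it was 0.0501.

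There were more counts of mt-Rnr2 per count of mt-Rnr1 in wild type than in knockout. The ratio was 15.0, 14.1 and 13.9 in wild type and 12.2, 13.8 and 12.5 in knockout. Its means were 14.3 ± 0.596 and 12.9 ± 0.860 (SD, n = 3), and the groups did not overlap, although wild type replicate 3 and knockout replicate 2 almost met. The exact permutation p of 0.1 is the smallest the design allows and was 0.367 after Benjamini-Hochberg adjustment over 11 ratios. This ratio is independent of the scaling between libraries.

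mt-Cytb encodes cytochrome b, the only mitochondrially encoded subunit of complex III. Its share of all gene counts was 0.861%, 0.765% and 0.627% in wild type and 0.660%, 0.765% and 0.649% in knockout. The groups overlapped, with wild type replicate 3 the lowest of the 6 libraries, and the means of 0.751% ± 0.118 and 0.691% ± 0.0642 (SD, n = 3) gave an exact permutation p of 0.7. After TMM scaling the libraries had 10070 (replicate 1), 8081 and 6840.5 CPM in wild type and 5848, 6804 and 6159 CPM in knockout, so that wild type replicate 3 lay just above knockout replicate 2. The fitted log2 fold change was -0.41 (SE 0.18, adjusted p = 0.143, edgeR), which did not pass the threshold. In the authors' deposited table the log2 fold change was -0.39 with an adjusted p of 0.0441, and DESeq2 run on the same genes as edgeR gave -0.41 with an adjusted p of 0.0322, in a fit where 6.41% of all genes fell. edgeR without the filter on low counts gave -0.40 with an adjusted p of 0.0498, so the call turned on the test and on the filter. Without wild type replicate 1 the log2 fold change from edgeR was -0.23 (adjusted p = 0.363), and with library totals only it was -0.12.

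mt-Co1 encodes the catalytic subunit of cytochrome c oxidase, complex IV. It held most of the messenger counts left after reads without a unique alignment had been set aside. Its share was 11.4%, 12.4% and 10.6% of all gene counts in wild type and 7.96%, 8.99% and 9.30% in knockout. No knockout library reached the lowest wild type library. Scaled levels were 126539 ± 9399 CPM and 79582 ± 8916 CPM (SD, n = 3), and mt-Co1 fell by 0.67 on the log2 scale (SE 0.19, adjusted p = 0.0357, edgeR), to 62.9% of wild type. Without wild type replicate 2 or knockout replicates 1, 2 or 3 the adjusted p from edgeR was 0.0808, 0.134, 0.0949 and 0.0925.

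mt-Co2 encodes the complex IV subunit that receives electrons from cytochrome c. It had only 23, 35 and 24 counts in wild type and 10, 10 and 6 counts in knockout. Scaled values were 1.15 ± 0.152 CPM and 0.508 ± 0.0259 CPM (SD, n = 3), with no overlap. The gene fell by 1.16 on the log2 scale (SE 0.32, adjusted p = 0.0323, edgeR). This was lost without any 1 of the 6 libraries, with adjusted p from 0.0574 to 0.128, with the replicate block (0.0630), and with DESeq2 (0.104), and in the authors' deposited table the adjusted p was 0.102.

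mt-Co3, a structural subunit of complex IV, had 37, 37 and 30 counts in wild type and 21, 15 and 17 counts in knockout. Its CPM overlapped between the groups, at 1.48 ± 0.226 and 1.08 ± 0.282 (SD, n = 3). The log2 fold change was -0.47 (SE 0.30, adjusted p = 0.304, edgeR). As a share of all gene counts, knockout replicate 3 lay above wild type replicates 2 and 3.

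mt-Atp6 encodes the membrane subunit through which complex V conducts protons, and mt-Atp8 a short subunit that helps hold the membrane and catalytic parts together. mt-Atp6 had 13, 12 and 5 counts in wild type and 5, 3 and 2 counts in knockout. Both groups held a library with 5 counts, knockout replicates 2 and 3 were at or under the floor of 3 counts used here for a measurable gene, and the gene was left out of the test by the filter on low counts. Tested without that filter its log2 fold change was -1.08 (SE 0.61, adjusted p = 0.298, edgeR). mt-Atp8 had 0 counts in all 6 libraries. A count of 0 allows up to 3 counts, which corresponded to 0.115 ± 0.00727 counts per 1000000 gene counts in wild type and 0.202 ± 0.0440 in knockout (SD, n = 3), so no comparison was possible.

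**Figure D2:**
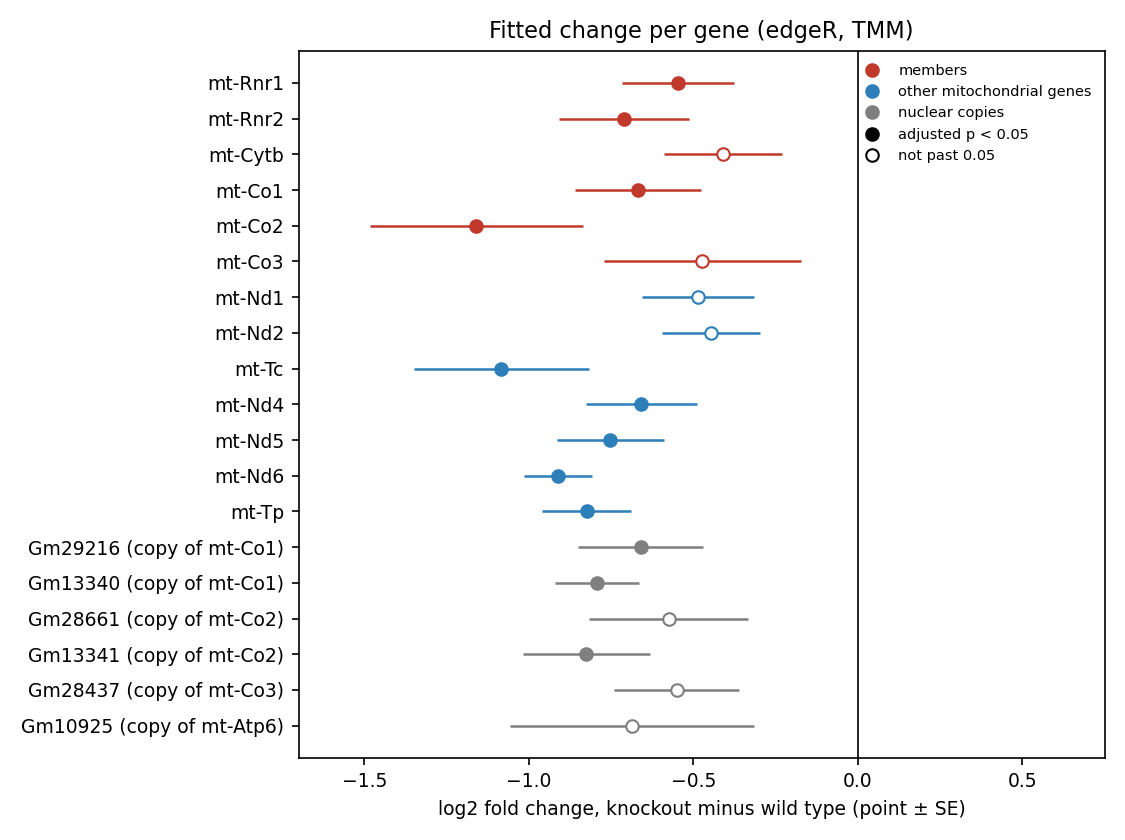
Fitted log2 fold change of knockout against wild type with its standard error, for the 6 tested genes of the set (red), the other tested mitochondrial genes (blue) and the nuclear copies (grey); filled points passed an adjusted p of 0.05 in edgeR's test. All points lie below 0, from -1.16 for mt-Co2 to -0.41 for mt-Cytb.

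Per unit of length mt-Rnr2 was the highest, with 196483 counts per 1000000 gene counts per kilobase in wild type. In wild type the order was mt-Rnr2, mt-Co1 (74144), mt-Rnr1 (22711), mt-Cytb (6564), mt-Co3 (1.70), mt-Co2 (1.52) and mt-Atp6 (0.561). The order of these 7 was the same in knockout, where the levels were 146358, 56645, 18918, 6044, 1.51, 0.820 and 0.312. Of these neighbours, mt-Co3 and mt-Co2 in wild type overlapped between libraries, and the other neighbours among the 7 were apart in both groups. The rank of mt-Atp8 among the sparse genes cannot be set, since the floor of 3 counts per library allows it a mean of up to 0.566 in wild type and 0.990 in knockout, above mt-Atp6 in both groups and above mt-Co2 in knockout. The step from mt-Cytb to mt-Co3 was 3867-fold in wild type and 4007-fold in knockout.

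Of the genes below that step, mt-Co3, mt-Co2 and mt-Atp6 had at least 99% of their windows in annotated nuclear transcripts, and mt-Atp8, with 0 counts, had 0% of its windows there. The 4 above it had from 0 to 51.1% of their windows there. Levels of mt-Co2, mt-Co3 and mt-Atp6 are therefore given as the counts that were left after reads without a unique alignment had been set aside, and are not read here as the abundance of these messengers. The share of reads without a unique alignment differed between the genotypes, as stated above, and its part in the fold changes of these genes was not tested. The order of the genes above the step is not read as abundance either. Counts of mt-Rnr2 and mt-Rnr1 are of the rRNA left after depletion, and mt-Co1 had 51.1% of its windows in annotated nuclear transcripts.

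**Figure D3:**
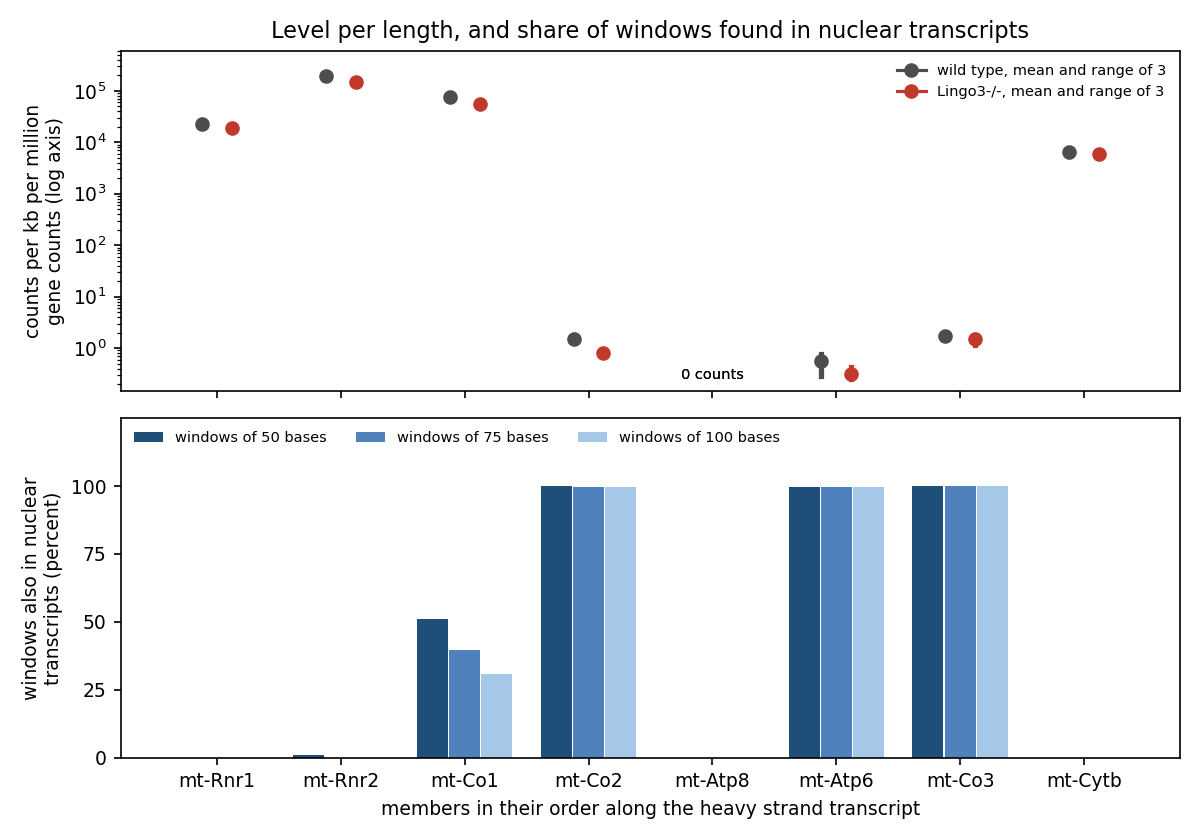
Top, counts per 1000000 gene counts per kilobase on a log axis (point, mean; line, range of 3 libraries); bottom, percent of windows of 50, 75 and 100 bases found in annotated nuclear transcripts, with genes in their order along the mitochondrial chromosome. The means of mt-Co2, mt-Atp6 and mt-Co3 lie at 1.70 or below on the upper axis in both groups, and these genes have over 99% of their windows in nuclear transcripts.

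The nuclear copies collected counts of their own. Gm28661, the exact copy of mt-Co2, had 60, 75 and 51 counts in wild type and 29, 33 and 26 in knockout, more than mt-Co2 in every library. Gm28437, the exact copy of mt-Co3, had 88, 106 and 92 counts in wild type and 50, 57 and 33 in knockout, again more than mt-Co3. Gm10925, the exact copy of mt-Atp6, had 27, 47 and 17 counts and 18, 13 and 9 counts. A read that matches both places equally has no unique alignment and is left out of both genes of a pair. The counts given here are of reads that were aligned uniquely. What set those reads apart was not examined, and the values of either gene of a pair are uncertain. Of the 6 copies, Gm13340 (log2 fold change -0.79, SE 0.13, adjusted p = 0.00299), Gm13341 (-0.83, SE 0.19, adjusted p = 0.0156) and Gm29216 (-0.66, SE 0.19, adjusted p = 0.0368) fell in edgeR's test. Gm28437 (-0.55, adjusted p = 0.0707), Gm28661 (-0.58, adjusted p = 0.129) and Gm10925 (-0.69, adjusted p = 0.228) did not pass it. Of all genes tested 5.97% fell.

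Among the messengers, mt-Co1 made 93.9% ± 0.780 of the counts of the 6 in wild type and 92.7% ± 0.718 in knockout (SD, n = 3), and mt-Cytb 6.14% ± 0.780 and 7.34% ± 0.718. These are shares of counted reads and are not read here as messenger abundance. At least 99% of the 50-base windows of mt-Co2, mt-Co3 and mt-Atp6 occur in annotated nuclear transcripts, as do 51.1% of those of mt-Co1. mt-Atp8 had 0 counts. The ratio of mt-Co1 to mt-Cytb counts was 13.2, 16.2 and 16.9 in wild type and 12.1, 11.7 and 14.3 in knockout. Wild type replicate 1 lay within the range of the knockout libraries, and the means of 15.4 ± 1.96 and 12.7 ± 1.42 (SD, n = 3) gave an exact permutation p of 0.2. mt-Rnr2 over mt-Co1 was 2.73 ± 0.259 and 2.66 ± 0.205 (SD, n = 3), with an exact permutation p of 1, and mt-Rnr1 over mt-Cytb was 2.94 ± 0.521 and 2.64 ± 0.394 (SD, n = 3), with a p of 0.6. The mt-Co2 counts per 1000000 mt-Co1 counts were 8.08, 10.1 and 8.99 in wild type and 7.30, 6.63 and 5.43 in knockout, which did not overlap (exact permutation p = 0.1). Of the 11 ratios computed within the mitochondrial genome none had an adjusted p under 0.367.

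**Figure D4:**
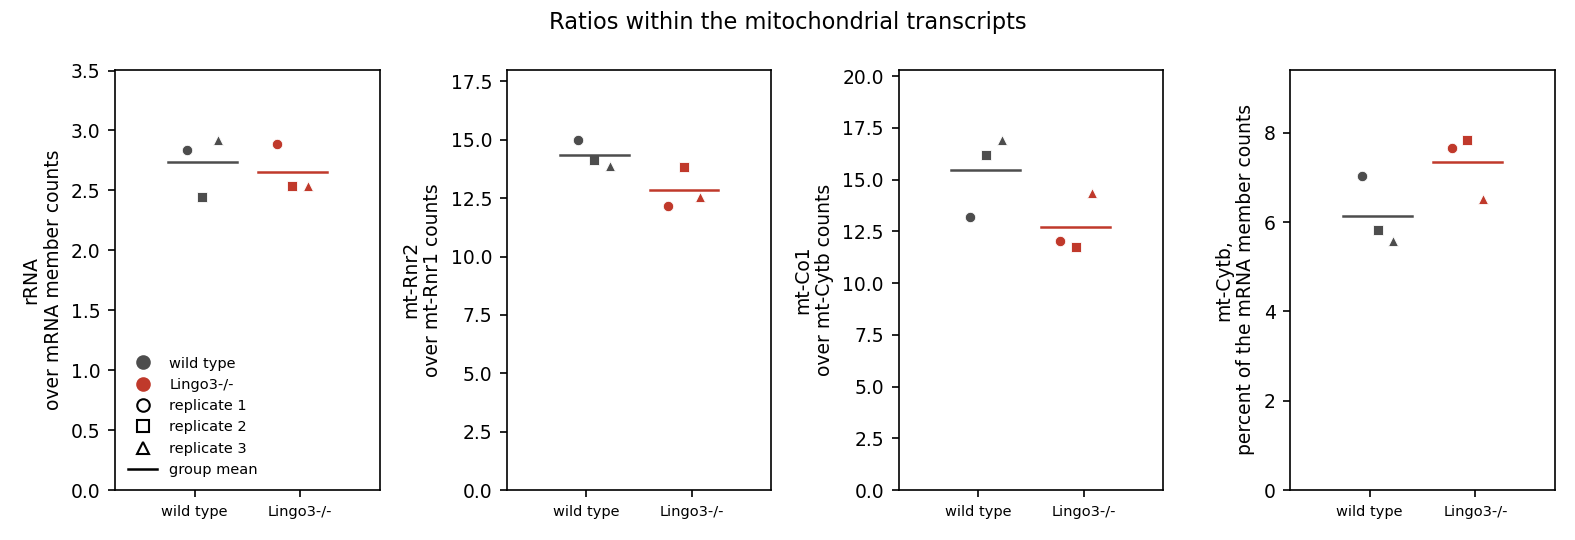
Ratios of counts within the mitochondrial genome in each library, with bars at the group means and axes from 0. The rRNA to messenger ratio overlaps between genotypes, the mt-Rnr2 to mt-Rnr1 ratio is 13.9 to 15.0 in wild type and 12.2 to 13.8 in knockout, and the mt-Co1 to mt-Cytb ratio and the mt-Cytb percentage overlap.

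The direction of the fitted changes did not depend on the settings tried, whereas the calls did. Over 17 alternatives (16 for mt-Co2, which a mean CPM of at least 1 removes) every log2 fold change of the 6 tested genes stayed below 0. Among these alternatives is the main fit read at an adjusted p under 0.1. Its log2 fold changes are the same, and a gene called at 0.05 passes it by definition. mt-Rnr2 ranged from -0.78 to -0.42 and passed in 13 alternatives, mt-Co1 from -0.75 to -0.39 in 12, mt-Rnr1 from -0.62 to -0.26 in 9 and mt-Co2 from -1.23 to -0.88 in 7. mt-Cytb ranged from -0.52 to -0.12 and passed in 2, and mt-Co3 from -0.64 to -0.19 and passed in 0. The smallest changes came from scaling by library totals alone, which moved the median of all genes by 0.28 on the log2 scale. With it 0 of the 6 passed in edgeR, where 2.49% of all genes fell, the adjusted p being 0.153 for mt-Rnr1, 0.0509 for mt-Rnr2, 0.0700 for mt-Co1 and 0.0661 for mt-Co2. When the scaling was taken from nuclear genes only, mt-Rnr1, mt-Rnr2, mt-Co1 and mt-Co2 passed, where 6.03% of all genes fell.

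**Figure D5:**
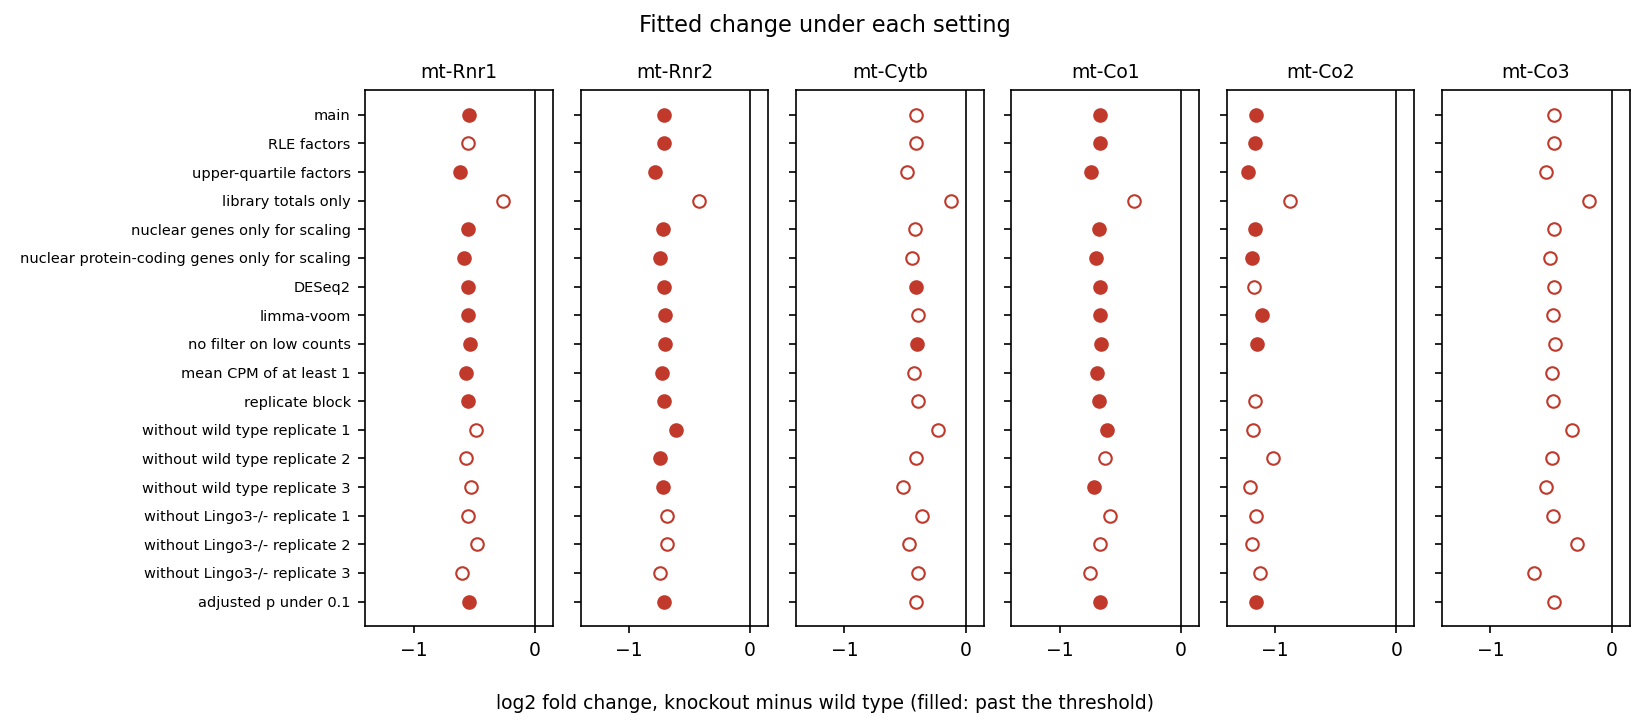
Log2 fold change of each tested gene under the main setting and each alternative; filled points passed the threshold on the adjusted p. All points are below 0, and those for library totals only lie nearest to 0.

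Nuclear genes that work with these transcripts did not show a common fall. The lists were chosen with earlier results of these data known and are described by counts, to be read against the 9.43% of all tested genes that rose and the 5.97% that fell. The single genes called for complex IV and for mitochondrial DNA replication and transcription are near these shares. So are the 2 of 27 tested assembly factors that fell. Of 9 nuclear subunits of complex III, 2 rose and 0 fell (median log2 fold change 0.11, against -0.03 over all genes tested): the core protein gene Uqcrc1 from 101 ± 1.81 to 152 ± 15.8 CPM and Cyc1, cytochrome c1, from 65.5 ± 0.313 to 95.1 ± 9.88 CPM (SD, n = 3). Of 11 nuclear subunits of complex IV, 1 rose and 0 fell (median 0.05), Cox8a, by 0.50 on the log2 scale (adjusted p = 0.0122, edgeR). Of 17 nuclear subunits of complex V, 5 rose and 2 fell (median 0.21). Among them Atp5b, the catalytic beta subunit, rose by 0.79 (adjusted p = 0.00466) and Atp5a1, the alpha subunit, by 0.71 (adjusted p = 0.00717), while the small subunit genes Atp5l and Atp5e fell by 0.47 (adjusted p = 0.0338) and by 0.44 (adjusted p = 0.0151), all in edgeR's test. Of 27 tested assembly factors of the 3 complexes, 4 rose and 2 fell (median 0.14). These included Surf1, needed to build complex IV, at 0.48, Atpaf2, a chaperone of complex V, at 0.44, and the copper carrier Cox17, which fell by 0.43.

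Genes for making and using mitochondrial RNA were measured in the same fit, where 9.43% of all genes tested rose and 5.97% fell. Of 15 genes of mitochondrial DNA replication and transcription, 0 rose and 1 fell, Polg2, the accessory subunit of the mitochondrial DNA polymerase, by 0.64 on the log2 scale (adjusted p = 0.0144, edgeR; list median 0.10). Of 19 genes of mitochondrial RNA processing and turnover, 5 rose and 0 fell (median 0.32). Examples were Grsf1, an RNA-binding protein of mitochondrial RNA granules, from 22.6 ± 2.18 to 35.0 ± 3.70 CPM, and Trmt10c, a subunit of mitochondrial RNase P, from 9.68 ± 0.984 to 14.4 ± 2.43 CPM (SD, n = 3). Of 24 genes of mitochondrial rRNA modification and ribosome assembly, 3 rose and 0 fell (median 0.30), C1qbp by a log2 fold change of 0.88 (SE 0.14) and Rcc1l by 0.55 (SE 0.14). These 3 of 24 are near the share of all genes that rose. Of 77 tested mitochondrial ribosomal proteins, whose products bind the 12S and 16S rRNAs, 20 rose and 1 fell (median 0.25), among them Mrps2 at 0.75 and Mrpl35 at 0.71, with Mrpl33 at -0.44. In edgeR's TMM-scaled fit both rRNAs were lower in knockout, while 20 of 77 tested mitoribosomal protein genes were higher. The rRNA counts are of what was left after depletion, and a relation between these changes was not tested.

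The other mitochondrially encoded messengers, the 7 for complex I, had 5 tested members, of which 3 fell and 0 rose (median -0.66). Of all genes tested 5.97% fell and 9.43% rose. mt-Nd6 fell by 0.91 (adjusted p = 0.000785), mt-Nd5 by 0.75 (adjusted p = 0.0104) and mt-Nd4 by 0.66 (adjusted p = 0.0227), while mt-Nd1 (-0.49, adjusted p = 0.0729) and mt-Nd2 (-0.45, adjusted p = 0.0626) did not pass edgeR's test. The 6 tested genes described here ran from -1.16 to -0.41. The value of -1.16 is that of mt-Co2, which had few counts and is not read here as abundance. Next came mt-Rnr2 at -0.71, a smaller fall than those of mt-Nd6 and mt-Nd5. No difference between the complexes was tested. The limit of unique alignment holds for complex I genes too. Of the 50-base windows of mt-Nd4, 62.2% occur in annotated nuclear transcripts. For mt-Nd3 and mt-Nd4l, which were not tested, the share was 98% and 98.8%. It was 8.19% for mt-Nd2, 7.61% for mt-Nd5 and 0% for mt-Nd1 and mt-Nd6.

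Across the 6 libraries the log2 share of the 8 genes was compared with the log2 CPM of 8031 nuclear genes with a mean of at least 10 CPM. The highest Pearson r were those of Sh3tc1 (0.990), Irf2bpl (0.985), Gab1 (0.985), Acox3 (0.982) and Map3k1 (0.981), and the lowest those of Sorcs2 (-0.999), Enpp1 (-0.995), B3galnt2 (-0.994), Ephb2 (-0.993) and Pes1 (-0.993). In all, 175 genes had an r above 0.9 and 643 an r under -0.9. The 6 points fall into 2 groups by genotype and share the library and its depth, so these values describe which genes separate the groups most evenly, without a test.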

How the data were processed

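The deposited count table holds raw counts per Ensembl gene for 6 libraries, 3 per genotype, with HTSeq summary lines at its end. Per the submitters' processing notes, reads were processed with Trimmomatic 0.39, STAR, HTSeq and DESeq2 on GRCm38. The sources used here do not give read length, annotation release or the strand setting of counting. The authors' deposited comparison table gives, per the file headers, log2 fold changes with standard errors, p-values and adjusted p-values from DESeq2, a test statistic (a score) and a normalised signal per library. It was used only where named.

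Summary lines were left out of library totals. Of 46078 gene identifiers 45229 (98.2%) had an entry in the GENCODE M21 annotation of GRCm38. Genes with at least 10 counts in enough libraries and 15 in all (filterByExpr) were scaled by TMM and tested in edgeR 4.0.16 (robust quasi-likelihood, R 4.3.3), genotype being the only term, with Benjamini-Hochberg adjustment and a threshold of 0.05. DESeq2 1.42.0 and limma-voom (limma 3.58.1) were alternatives, beside other scalings, filters, a replicate block, an adjusted p under 0.1 and each library left out in turn. The fitting code was also tested on simulated counts, and no result above rests on that. Shares and ratios were compared with a 2-sided exact permutation test over the 20 arrangements of the libraries. Libraries carry no molecular identifiers, so the floor of 3 counts covers counting error only. Windows of 50, 75 and 100 bases of each gene were looked up on both strands of all annotated nuclear transcripts, and copies sharing at least 100 windows of 50 bases were listed.

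The 8 genes, the lists and the rule for naming genes were chosen with earlier results of these data known. The rule named all 8 genes, of each list the 2 genes past the threshold with the largest change in each direction, and the 5 nuclear genes with the highest and the 5 with the lowest correlation.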

Additional observations from a re-analysis of the deposited data

How the results depend on the processing

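The number of the 6 tested genes that fell was 4, and it was between 0 and 2 when 1 library was left out (2 without wild type replicate 1 or 3, 1 without wild type replicate 2, and 0 when the library left out was a knockout) and 0 with library totals only. Over all genes, 1589 rose and 1007 fell. With 1 library left out 711 to 1677 rose and 413 to 1070 fell, with library totals only 5415 rose and 420 fell, without a filter 1675 fell, and at an adjusted p under 0.1, 1697 fell. The share of calls that were higher was 61.2%, 45.4% with upper-quartile factors and 92.8% with library totals only. The knockout share of the summed 8 genes was 75.7% of wild type. It was 80.5% over all reads of the table and 65.2% over protein-coding counts. For the rRNAs the value was 75.1%, and 79.9% and 64.7% on those denominators. For the messengers it was 77.4%, with 66.7% over protein-coding counts and 68.8% over counts without the rRNAs. Over all reads it was 82.4%, and there the groups overlapped. Same-numbered libraries of the 2 genotypes did not deviate together (r = -0.01, -0.117 and -0.103), and differently numbered ones had r from -0.118 to 0.219. These values show no pairing by number, but with 3 libraries per genotype they cannot exclude it. With the replicate block 1193 genes rose and 868 fell, and 3 of the 6 fell, mt-Co2 being lost. No log2 fold change of the 6 tested genes changed sign. The rRNA to messenger ratio, whose groups overlapped, was 97.0% of wild type and 100.4% without wild type replicate 3. Upper-quartile scaling gave 1137 higher and 1365 lower calls, so that lower ones were the more frequent. Low counts limited mt-Atp8, which could not be compared, mt-Atp6, which had 13 counts or fewer per library, and mt-Co2 and mt-Co3, which had 37 or fewer; the cause was not tested.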

Other observations

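Most mitochondrial genes, the 8 described above included, are read from the transcript of the same direction, and mt-Nd6 and a group of tRNAs, mt-Tc and mt-Tp among them, from the opposite one. The 3 tested genes of the opposite direction fell in edgeR's test: mt-Nd6 with a log2 fold change of -0.91 (SE 0.10, adjusted p = 0.000785), mt-Tp, the proline tRNA, with -0.83 (SE 0.14, adjusted p = 0.00330) and mt-Tc, the cysteine tRNA, with -1.08 (SE 0.27, adjusted p = 0.0206). In that test 5.97% of all genes fell. mt-Tp had 5136, 5573 and 5197 counts in wild type and 2687, 2679 and 1257 in knockout, and mt-Tc had 104, 193 and 135 and 75, 52 and 21. A difference between the directions was not tested, and these genes were singled out after their values were seen. Of the 22 tRNAs 14 had 0 counts in all libraries, and mt-Tc and mt-Tp were the only ones with enough counts for the test. Without strand information on the counting, reads of mt-Nd6, mt-Tp and mt-Tc cannot be told apart from reads of a transcript on the other strand.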
